A study of Equus caballus with 6 samples.

Results

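The hemidesmosome anchoring complex was followed in equine lamellar hoof tissue through the probe sets of 9 genes, namely ITGB4, ITGA6, ITGA3, COL17A1, COL7A1, PLEC, DST, CD151 and LAMA3. A probe set was taken when the platform annotation gave it one of these as its single gene symbol. That found 4 of the 9 genes, among the 9155 single symbols on the array, through 5 of the 24016 probe sets besides controls: 1 each for ITGB4 (bovine gene ID 506995), ITGA3 (508490) and CD151 (523328), and 2 for COL17A1 (513804). The annotation used here named no probe set for ITGA6, COL7A1, PLEC, DST or LAMA3, so these 5 genes were not analysed here. All 9 symbols occur in the RefSeq gene table of the horse, and no genome coordinates were used.

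The samples were right-foot lamellar tissue of horses with laminitis (replicates 1, 3 and 4) and right-foot lamellar tissue described as normal (replicates 2, 3 and 4), 1 array for each of the 6 samples. The labels leave out breed, age and the way laminitis was brought about. They do not say that the samples came from separate horses, so p-values measure only how these samples vary, a variation that may be technical. Horse RNA was read with bovine GeneChips, whose probes may mismatch the horse transcript, so the signal of a probe set was compared between arrays, and levels of different genes were not ranked against each other.

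Hemidesmosomes rivet basal keratinocytes to the basement membrane. Inside the cell, plectin and the DST product BP230 hold keratin filaments. In the plasma membrane, integrin α6β4, the transmembrane collagen COL17A1 and the tetraspanin CD151 form the core, and outside it laminin-332, which holds the LAMA3 and LAMB3 chains, and the COL7A1 anchoring fibrils connect to the dermis. Inherited loss of these proteins in people causes blistering of the skin at this interface, and in laminitis the lamellar epidermis parts from the dermis that carries the coffin bone.

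The arrays had medians from 86.7 to 93.2 in laminitis and from 92.6 to 96.6 in normal tissue, in the linear units of the deposited signal. A probe set was tested when its signal exceeded the median of the array on at least 3 of 6 arrays, which held for 12519 probe sets and for 4 of the 5 described here. The dimmer COL17A1 probe set lay above the median on 2 arrays only and was therefore outside the main test. On the first principal component of the tested probe sets, which carried 31.3% of the variance, laminitis replicate 1 lay farthest out, at -52.3, with the other 5 arrays between -24.9 and 29.3. With limma and Benjamini-Hochberg adjustment over the tested probe sets 0 of 12519 passed at 0.05 (0% called), and of the 4 tested hemidesmosome probe sets 0 passed. At an unadjusted p under 0.05 limma gave 604 probe sets higher in laminitis (4.82%) and 622 lower (4.97%), and none of the 4 was among them.

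KRT14 and KRT5, keratins of the basal keratinocytes that build hemidesmosomes, lay above the median of all 6 arrays, KRT5 by its brighter probe set, while its dimmer one did so on 2 arrays. KRT14 had signals of 469, 503 and 509 on laminitis replicates 1, 3 and 4, against 609, 397 and 143 on normal replicates 2, 3 and 4. KRT5, its filament partner, had by its brighter probe set 260, 186 and 331 in laminitis, against 214, 266 and 224 in normal tissue. The groups overlapped for both keratins. The 5 tested basal keratinocyte probe sets, which stood for 4 of the 6 listed genes, summed to between 1198 and 1618 in laminitis and to between 994 and 1415 in normal tissue. The lowest of the 6 sums was that of normal replicate 4, where KRT14 was 143. The dimmer KRT15 probe set was also lowest of the 6 arrays there (78.2). KRT5 by its brighter probe set (224), DLK2 (353) and the brighter KRT15 probe set (196) were not lowest on that array. In bulk tissue, fewer cells of a type and less RNA per cell cannot be told apart.

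ITGB4, the β4 subunit whose long cytoplasmic tail binds plectin, had the largest difference among the hemidesmosome probe sets. Its signal was 206, 504 and 566 on laminitis replicates 1, 3 and 4, against 276, 190 and 76.5 on normal replicates 2, 3 and 4. Laminitis replicates 3 and 4 lay above all normal arrays, while laminitis replicate 1 lay below normal replicate 2, so the groups overlapped. The normal array with the lowest ITGB4, replicate 4, was also the one with the lowest KRT14, though not with the lowest KRT5. The means were 425 ± 192 in laminitis and 181 ± 99.9 in normal tissue (SD, n = 3 each). On the log2 scale the difference was 1.29 ± 0.57 (limma SE), a 2.45-fold higher geometric mean in laminitis, with a 95% interval of 0.965-fold to 6.20-fold. The limma adjusted p was 0.525, so ITGB4 did not pass. The size of its difference exceeded that of 97.8% of tested probe sets, and its within-group SD of 0.88 on the log2 scale exceeded that of 93.0% of them.

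The ITGB4 difference was 0.76 without normal replicate 4 and 1.75 without laminitis replicate 1, and positive whichever array was left out. Normal replicate 4 therefore set much of its size. The part that the basal keratinocyte content of that array has in the ITGB4 value was not tested. The plot of the differences with 1 array left out shows that leaving out laminitis replicate 1 moved COL17A1 across zero, while ITGA3 and CD151 stayed negative throughout.

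**Figure D1:**
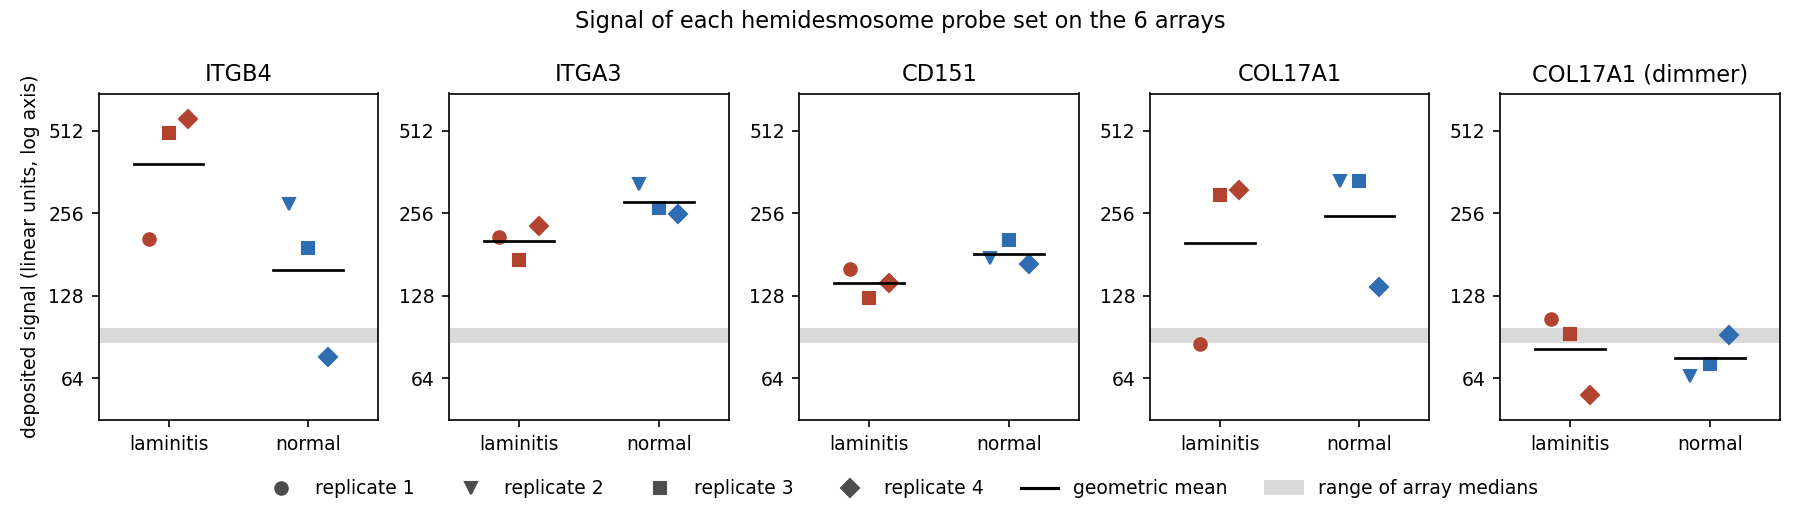
Deposited signal (linear units on a log2 axis) of each hemidesmosome probe set in laminitis and normal tissue, 1 point per array with its replicate as the symbol, a bar at the geometric mean of 3 arrays and a grey band over the range of array medians. ITGA3 and CD151 keep the groups apart with laminitis below normal, ITGB4 reaches 504 and 566 on laminitis replicates 3 and 4, and the brighter COL17A1 probe set is low on laminitis replicate 1 and normal replicate 4.

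ITGA3, the α3 subunit that pairs with β1 integrin in another laminin-332 receptor of basal cells, had the opposite sign. Its signal was 209, 173 and 230 on laminitis replicates 1, 3 and 4, against 327, 267 and 255 on normal replicates 2, 3 and 4. Every laminitis array lay below every normal array. The means were 204 ± 28.7 in laminitis and 283 ± 38.5 in normal tissue (SD, n = 3 each), a log2 difference of -0.48 ± 0.21 (limma SE). The geometric mean in laminitis was 0.719 of that in normal tissue, with a 95% interval of 0.51 to 1.01, and the limma adjusted p was 0.528.

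CD151, the tetraspanin that binds laminin-receptor integrins laterally in the membrane, had the sign of ITGA3 and also kept the groups apart. Its signal was 160, 125 and 143 on laminitis replicates 1, 3 and 4, against 176, 205 and 167 on normal replicates 2, 3 and 4. The groups did not overlap, but the gap between the highest laminitis array and the lowest normal array was small, and the groups overlapped after quantile or cyclic loess normalization. The means were 143 ± 17.7 in laminitis and 183 ± 19.8 in normal tissue (SD, n = 3 each), a log2 difference of -0.36 ± 0.20 (limma SE) at a limma adjusted p of 0.598. The geometric mean in laminitis was 0.78 of that in normal tissue (95% interval 0.563 to 1.08). Laminitis replicate 3 had the lowest signal of the 6 arrays for both ITGA3 and CD151.

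Among all tested probe sets, groups that did not overlap with laminitis lower made up 8.92%, or 1117 probe sets, and 988 (7.89%) kept the groups apart with laminitis higher. Of the 4 tested hemidesmosome probe sets, ITGA3 and CD151 were of the lower kind and 0 of the higher kind. Both varied little within groups: the within-group SD of log2 values was 0.20 for ITGA3 and 0.17 for CD151, against a median of 0.33 over tested probe sets. Of the 4 log2 differences 3 were negative, with a median of -0.34, where 56.3% of all tested probe sets were negative and their median was -0.056.

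COL17A1, the transmembrane collagen that spans from the hemidesmosomal plaque into the basement membrane, was read by a pair of probe sets that did not follow each other. The brighter one had 85.4, 298 and 312 on laminitis replicates 1, 3 and 4, against 335, 336 and 138 on normal replicates 2, 3 and 4. Laminitis replicate 1 and normal replicate 4 were low and the other 4 arrays lay between 298 and 336. The means were 232 ± 127 in laminitis and 270 ± 114 in normal tissue (SD, n = 3 each), and the log2 difference was -0.32 ± 0.59 (limma SE, adjusted p 0.874). Its 95% interval ran from 0.305-fold to 2.10-fold, so changes of either sign within those bounds were not distinguished. The value was 0.29 without laminitis replicate 1 and -0.75 without normal replicate 4, so a single array decided its sign.

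The dimmer COL17A1 probe set had 105, 92.9 and 55.5 on laminitis replicates 1, 3 and 4, against 65.0, 72.2 and 92.1 on normal replicates 2, 3 and 4. It was highest on laminitis replicate 1, where the brighter one was lowest, and the ratio of brighter to dimmer ran from 0.815 on that array to 5.62 on laminitis replicate 4. Its log2 difference was 0.11 ± 0.32 (limma SE, n = 3 each) in the fit with no filter on dim probe sets, at an adjusted p of 0.949. All 6 of its values lay near or below the array medians, where no detection call was used to tell signal from background.

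**Figure D2:**
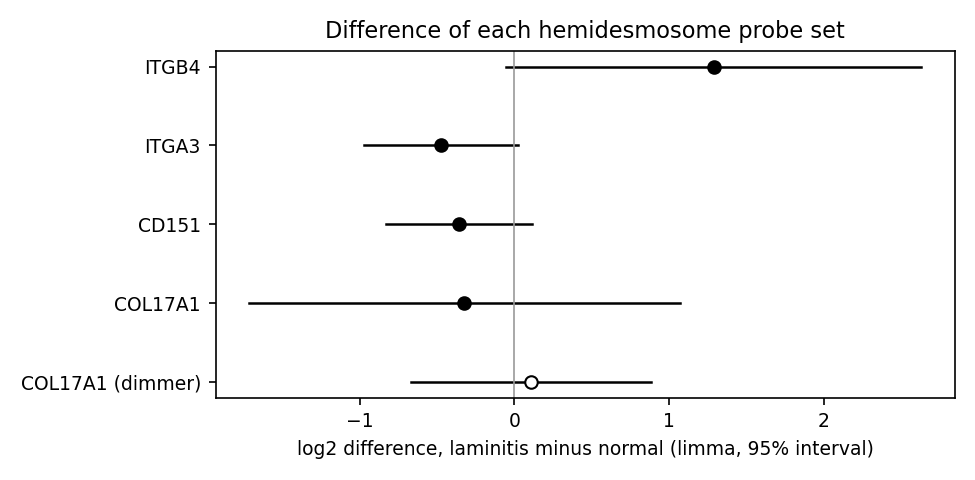
Log2 difference between laminitis and normal tissue for each hemidesmosome probe set, with its 95% interval from limma (3 arrays per group); the open point is the dimmer COL17A1 probe set, from the fit with no filter on dim probe sets. All 5 intervals include zero, and the ITGB4 point stands at 1.29.

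The arrays with low ITGB4 and low COL17A1 were partly the same, so the genes were also compared within each array, where any scaling factor of the array cancels. This step was chosen after the data were seen and was run on all 6 pairs of the 4 tested probe sets. The log2 ratio of ITGB4 over the brighter COL17A1 probe set, centred on its mean over the 6 arrays, was 1.11, 0.60 and 0.70 on laminitis replicates 1, 3 and 4, against -0.44, -0.98 and -1.005 on normal replicates 2, 3 and 4. All 3 laminitis arrays exceeded all 3 normal arrays, including laminitis replicate 1, where COL17A1 was lowest of the 6 arrays and ITGB4 lowest of its group. This holds for the brighter COL17A1 probe set only. Compared with normal replicate 2, laminitis replicate 1 had less ITGB4 (206 against 276) and more dimmer COL17A1 signal (105 against 65.0). Relative to the dimmer probe set the groups therefore overlap. The ratio to the brighter one was 3.06-fold higher in laminitis, a log2 difference of 1.61 with SDs of 0.27 in laminitis and 0.32 in normal tissue (n = 3 each). The exact two-sided permutation p was 0.1, the smallest that 3 against 3 arrays allow, and 0.3 after Benjamini-Hochberg adjustment over the 6 pairs.

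Relative to the brighter COL17A1 probe set, 147 of 12518 other tested probe sets (1.17%) kept the groups apart with laminitis higher, ITGB4 among them. That share depends on the probe set in the denominator, and those for ITGA3 and CD151, given below, were larger. The within-group SD of the brighter COL17A1 probe set, 0.91 on the log2 scale, exceeded that of 93.8% of tested probe sets. With 1 array left out the ITGB4 to COL17A1 log2 difference ranged from 1.46 to 1.80. The ratio of ITGB4 over ITGA3 also kept the groups apart, with centred log2 values of -0.079, 1.49 and 1.24 on laminitis replicates 1, 3 and 4, against -0.31, -0.55 and -1.80 on normal replicates 2, 3 and 4. Its log2 difference was 1.77 (exact permutation p = 0.1, adjusted 0.3, n = 3 each), but 29.1% of tested probe sets kept the groups apart in the same direction relative to ITGA3. For ITGB4 over CD151 the groups overlapped, with a log2 difference of 1.65 (exact permutation p = 0.2, adjusted 0.4, n = 3 each), and 22.7% of tested probe sets kept the groups apart that way relative to CD151. The 3 pairs without ITGB4 had log2 differences between -0.15 and -0.036, and all of them overlapped.

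**Figure D3:**
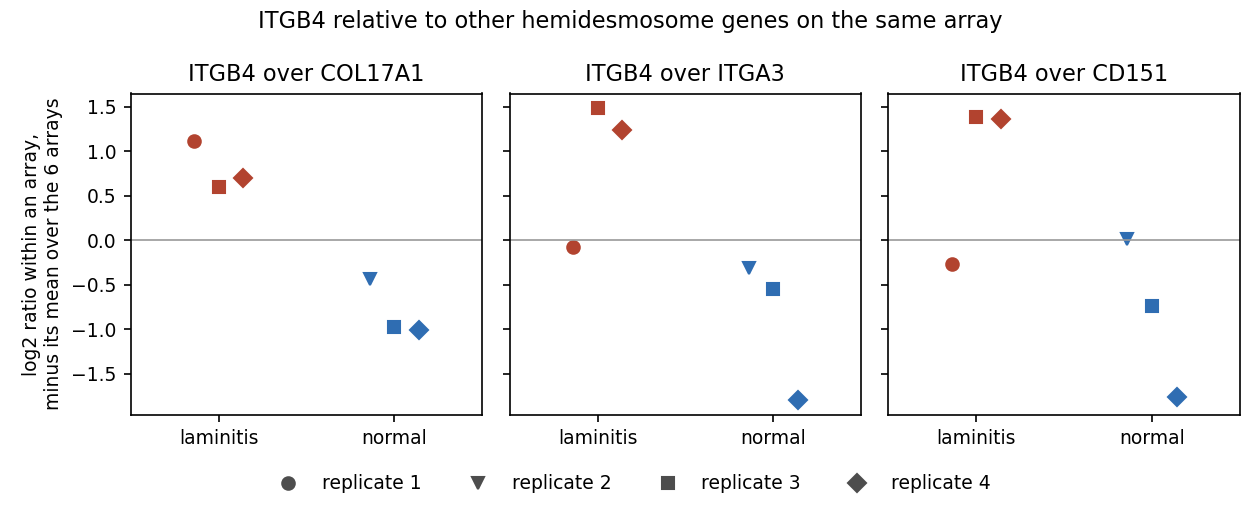
Log2 ratio of ITGB4 to COL17A1 (brighter probe set), ITGA3 and CD151 on the same array, minus the mean of that ratio over the 6 arrays, with 1 point per array and the replicate as the symbol. The laminitis points lie above the normal points for COL17A1 and for ITGA3, and for CD151 laminitis replicate 1 lies below normal replicate 2.

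The array profile of ITGB4 was compared with those of 7606 other tested probe sets with a single symbol. The closest 5, by the mean absolute gap between centred log2 values over the 6 arrays, were TFG (0.31), IFI30 (0.33), SLC52A3 (0.33), FKBP5 (0.34) and NAALADL1 (0.35). Each of these 5 was lowest on normal replicate 4, as ITGB4 was, which follows largely from their selection by closeness to the ITGB4 profile.

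Partner genes of the complex were taken from lists beside the 9 genes. Of 11 listed symbols, of which ERBIN and ERBB2IP name the same gene, 6 had a probe set and 5 were tested. The tested genes had 6 probe sets, of which 4 had a positive and 2 a negative difference. Their median was 0.10 on the log2 scale and 0 passed. ITGB1, which pairs with ITGA3, had 241, 305 and 298 on laminitis replicates 1, 3 and 4, against 267, 310 and 307 on normal replicates 2, 3 and 4, and a log2 difference of -0.072 ± 0.20 (limma SE, adjusted p 0.923). The plakin MACF1, related to plectin and BP230, had 0.50 ± 0.31 (adjusted p 0.633). KRT14 had 0.60 ± 0.50 (adjusted p 0.725), and ERBIN, which binds β4 integrin and BP230, had -0.21 ± 0.34 by the probe set of smaller p and 0.099 ± 0.37 by the other tested one.

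LAMB3, the β3 chain of laminin-332 and so the direct partner of the LAMA3 chain, was below the filter and is named after its values were seen. Its signal was 123, 85.5 and 100 on laminitis replicates 1, 3 and 4, against 36.3, 28.3 and 38.3 on normal replicates 2, 3 and 4. The groups stood apart, with laminitis higher, and all 3 normal values lay far below the medians of their arrays. In the fit with no filter, limma gave a log2 difference of 1.58 ± 0.26 (limma SE, n = 3 each) at an adjusted p of 0.289, so it did not pass (adjusted p from 0.196 to 0.559 over its alternatives). Among all 24016 probe sets, 6.32% kept the groups apart with laminitis higher. With 64 added to every signal the difference was 0.76, so its size depends on how the low normal values are read. LAMB3 and ITGB4 had positive differences and ITGA3 and CD151 negative ones, but none of them passed and the ITGB4 groups overlapped. A shared pattern of laminin-332 and its receptors was not tested, and ITGA6 and LAMA3 had no probe set.

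The calprotectin genes S100A8 and S100A9, abundant in neutrophils, were by their tested probe sets higher on each laminitis array than on all normal arrays, and a dimmer S100A9 probe set overlapped. The neutrophil enzymes ELANE and MPO kept the groups apart with laminitis lower, with log2 differences of -1.05 ± 0.34 and -0.44 ± 0.21. None of the 4 passed. The 4 probe sets, of 4 of 6 listed neutrophil genes, summed to between 1495 and 12992 in laminitis and between 503 and 983 in normal tissue. As ELANE and MPO were lower in laminitis, the higher sums there came from S100A8 and S100A9. Laminitis replicate 4 had the lowest sum of its group. The 5 tested leukocyte probe sets, of 5 of 7 listed genes, summed to between 843 and 932 in laminitis and between 695 and 841 in normal tissue. Of these 5, CYBB, a subunit of the phagocyte oxidase, differed by 2.20 ± 0.41 on the log2 scale (adjusted p 0.222 in limma), and the other 4, for CD68, CD14, ITGB2 and CD3E, had negative differences. The 3 tested probe sets of suprabasal and cornified keratinocytes, of 3 of 12 listed genes, summed to between 471 and 895 in laminitis and between 669 and 811 in normal tissue. No tested marker was at 0, and the part of these cell types in the hemidesmosome values was not tested. The 13 tested dermal fibroblast probe sets stood for 8 of 9 listed genes. They summed to between 9427 and 31528 in laminitis and between 8702 and 31165 in normal tissue. In either group the sum was highest on the array numbered 4. These sums were not tested against the hemidesmosome values. Collagen I and III probe sets made up most of these sums, and DCN, decorin, differed by -1.61 ± 0.42 on the log2 scale (adjusted p 0.345 in limma), with laminitis below normal on all arrays.

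In the basement membrane beneath the hemidesmosome, 12 probe sets of 7 of the 17 listed genes were tested, of which 9 had a negative difference, with a median of -0.13 and 0 past the test. NTN4, a netrin that binds laminin, had 56.0, 76.4 and 77.3 on laminitis replicates 1, 3 and 4, against 146, 148 and 150 on normal replicates 2, 3 and 4. HSPG2, perlecan, had 487, 447 and 393 in laminitis, against 732, 743 and 751 in normal tissue. Both kept the groups apart with laminitis lower, at limma adjusted p of 0.222 for NTN4 and 0.330 for HSPG2. NTN4 exceeded the array median on the 3 normal arrays only, so it entered the test only through the group where it was high. COL4A1 had 0.88 ± 0.51 by one probe set and -0.041 ± 0.19 by another.

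Among focal adhesion genes of keratinocytes, which anchor actin instead of keratin, 15 probe sets of 10 of the 14 listed genes were tested, 4 with a positive and 11 with a negative difference. The median was -0.16 and 0 passed. FERMT2, a kindlin that activates integrins, had -0.62 ± 0.29 and -0.66 ± 0.38 by its probe sets, and the focal adhesion kinase PTK2 had -0.49 ± 0.24, with -0.014 by another tested probe set.

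Of the enzymes and receptors that act on hemidesmosomes, 9 probe sets of 8 of 15 listed genes were tested, with a median of 0.0046, and 0 passed. PRKCA, a protein kinase C whose activity loosens β4 integrin from the plaque, had -1.50 ± 0.82. Its signal was 11.0 on laminitis replicate 1 and between 96.3 and 166 on the other 5 arrays. A dimmer PRKCA probe set outside the main test had 0.077, with its highest signal, 67.7, on laminitis replicate 1. ADAM10, which like ADAM9 and ADAM17 can shed the COL17A1 ectodomain, had 0.50 ± 0.28, with 0.09 by another tested probe set, and FYN, a kinase that phosphorylates β4, had -0.38 ± 0.44. Of the other tetraspanins, 6 probe sets of 5 of the 6 listed genes were tested, with a median of 0.098, where CD151 had -0.36. TSPAN4 had 0.43 ± 0.24 by its tested probe set. A dimmer TSPAN4 probe set outside the main test had -1.17, with laminitis below normal on all arrays. TSPAN6 had -0.38 ± 0.34 and 0.25 ± 0.23 by its probe sets. None of these passed.

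**Figure D4:**
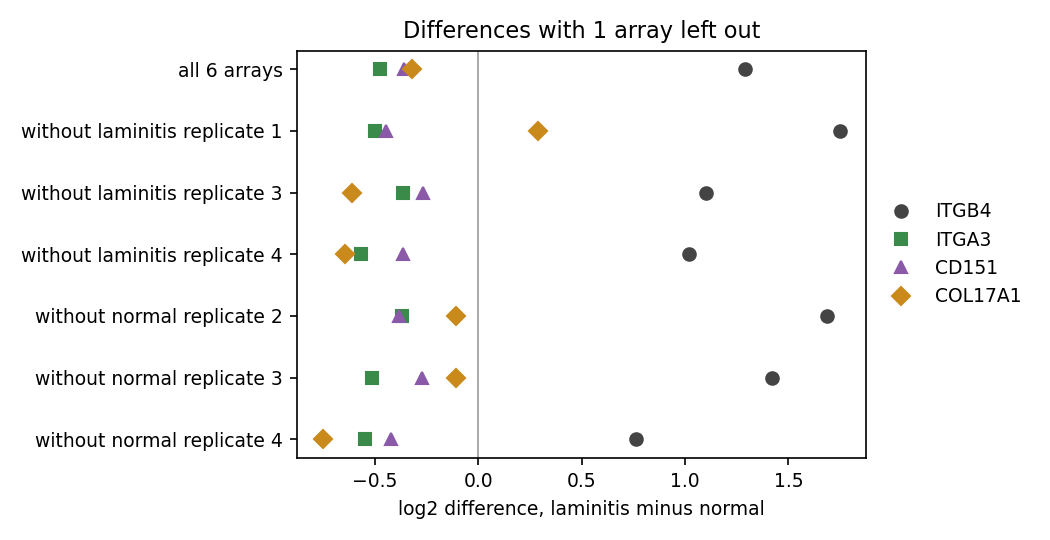
Log2 difference between laminitis and normal tissue for ITGB4, ITGA3, CD151 and the brighter COL17A1 probe set with all 6 arrays and with each array left out. ITGB4 runs from 0.76 to 1.75 and COL17A1 from -0.75 to 0.29, while ITGA3 and CD151 stay negative.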

How the data were processed

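Total RNA was labelled with biotin by a one-cycle protocol and hybridised to bovine GeneChips, per the labels' protocols. The intensity values deposited by the authors are linear, 1 per probe set and array, with the same mean on every array after trimming 2% at each end (150.02 to 150.03). The submitters' processing notes name GCRMA. A linear scale with values down to 0.0386 is not its usual output, so how the values were made is open. No detection calls were used.

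Gene symbols come from GEO's platform annotation, which is bovine and can be old: 13292 probe sets had 1 symbol, 86 several and 10638 none, after leaving out 112 controls. Values were taken to log2 with no offset and fitted by limma 3.58.1 (lmFit, then eBayes) in R 4.3.3 on the whole table, with two-sided tests. Adjusted p-values are Benjamini-Hochberg over all tested probe sets. The procedure was tested on simulated data. No arrays held identical values. The genes and lists were chosen with earlier results of these data known. Named from each list were up to 3 tested probe sets of smallest p. KRT5, ITGB1 and the leukocyte, neutrophil and fibroblast genes were named in addition, for their role, and LAMB3 after its values were seen.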

Additional observations from a re-analysis of the deposited data

How the results depend on the processing

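The 4 tested hemidesmosome probe sets had 0 calls under all 12 alternatives and with any 1 array left out. ITGB4 stayed positive (1.00 with 64 added to 2.15 with the replicate number as a block) and ITGA3 and CD151 stayed negative in every setting run, while an array filter requiring all 6 arrays removed ITGB4 and COL17A1. With 1 array left out, ITGB4 ranged from 0.76 to 1.75, ITGA3 from -0.57 to -0.36, CD151 from -0.45 to -0.27 and the brighter COL17A1 probe set from -0.75 to 0.29. That COL17A1 value changed sign to 0.29 without laminitis replicate 1 and to 0.50 under the replicate block. The block uses only numbers 3 and 4, whose deviations correlated at -0.017 and -0.031, so the numbers were not taken as pairs, and the block called 0 probe sets. Over the whole array the count of calls was 0, but 6 with the filter on all 6 arrays, 2 with the filter on at least 1 array, 4 with an intensity trend and robust variance, and 0 to 2 with 1 array left out (2 without laminitis replicate 4). The ITGB4 to COL17A1 ratio was 1.22 on the log2 scale with 64 added. The dimmer COL17A1 probe set had a value only with weaker or no filters. Without detection calls, signal over background could not be judged, which limits LAMB3 and the dimmer COL17A1 probe set.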
